A study of Mus musculus with 18 samples.

Results

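The nuclei described here were chosen by their unique molecular identifiers (UMIs) of Mpped1, Fibcd1 and Wfs1, genes that mark pyramidal neurons of hippocampal field CA1. A hippocampal (Hip) nucleus was a member where these 3 genes gave 2 or more UMIs in sum, Slc17a7 (the vesicular glutamate transporter VGLUT1) gave at least 1, Prox1 (a marker of dentate granule cells) at most 1, Gad1 and Gad2 (enzymes of GABA synthesis) at most 1 in sum, and the glial and vascular genes Mog, Mag, Aqp4, Gja1, Csf1r and Flt1 at most 1 in sum. This rule selected 9026 of the 71398 Hip nuclei with at least 200 detected genes and at most 10% mitochondrial UMIs. Markers outside the rule showed that the members were a mixture, so they are called marker-positive nuclei below. The genes of the rule are given only as a description, with no test.

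CA1 pyramidal neurons are the main glutamatergic output cells of the hippocampus proper. They receive the Schaffer collaterals of CA3 neurons on AMPA and NMDA receptors, are held in check by GABA-A receptors that answer to local interneurons, and send axons to the subiculum and the cortex. They are known for long-term potentiation, for the spatial firing of place cells, and for a strong induction of immediate early genes by activity. CA1 neurons also carry both corticosteroid receptors, which bind stress hormones.

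All nuclei came from male Kun Ming mice, an outbred stock, aged 8 weeks. The germ-free (GF) group had no microbiota, the specific pathogen-free (SPF) group had a conventional microbiota without listed pathogens, and the colonized germ-free (CGF) group were GF mice that had been housed with SPF mice. Each group had 3 mice, and each mouse gave 1 Hip and 1 prefrontal cortex (PFC) library of 10x Genomics single-nucleus RNA, 18 libraries in all. GF and CGF mice lived in isolators and SPF mice did not, so the microbiota and the housing cannot be told apart between GF and SPF mice. Values of single mice are listed in the order GF mice 5, 6 and 7, SPF mice 30, 31 and 32, and CGF mice 17, 18 and 19.

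The 9 Hip libraries held 6480 to 9001 cell barcodes each, with 4.91e+07 to 6.32e+07 UMIs. The members numbered 1209, 1018 and 1045 in the GF mice, 1156, 853 and 974 in the SPF mice, and 991, 1019 and 761 in the CGF mice. Their UMIs summed to between 8.84e+06 and 1.51e+07 per mouse. Of nuclei that met every other part of the rule, 3029 stood just inside the threshold with 2 marker UMIs, and 5586 stood just outside it with 1. The median Zbtb20 level over the 9 mice was 1465 counts per 1000000 UMIs (CPM) just inside and 2176 CPM just outside, that of Man1a, a CA1 marker, was 502 and 363 CPM, and that of Cpne4, a CA3 marker, was 225 and 450 CPM.

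Zbtb20, a zinc-finger repressor that CA1, CA3 and granule neurons carry from development on, was used to divide the marker-positive nuclei into a low and a high range. At 8 or more Zbtb20 UMIs stood 5084 nuclei (56.3%), and 3942 had fewer. Near this limit, at 6 to 9 UMIs, lay 493 nuclei (5.46%), and 535 lay in the equally wide class of 13 to 16 UMIs. The limit was set after the values had been seen and cuts a range rather than a type. The share at 8 or more was 57.5%, 48.6% and 44.9% in the GF mice, 54.6%, 66.2% and 57.8% in the SPF mice, and 58.1%, 49.9% and 76.5% in the CGF mice. CGF mouse 19 stood above all other mice, and the 3 groups overlapped. Counted at 5 or more Zbtb20 UMIs per 10000 UMIs of the nucleus, which allows for depth, the shares spanned 50.7% to 61.5% in GF mice, 59.2% to 70.0% in SPF mice, and 53.7% to 80.8% in CGF mice.

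**Figure D1:**
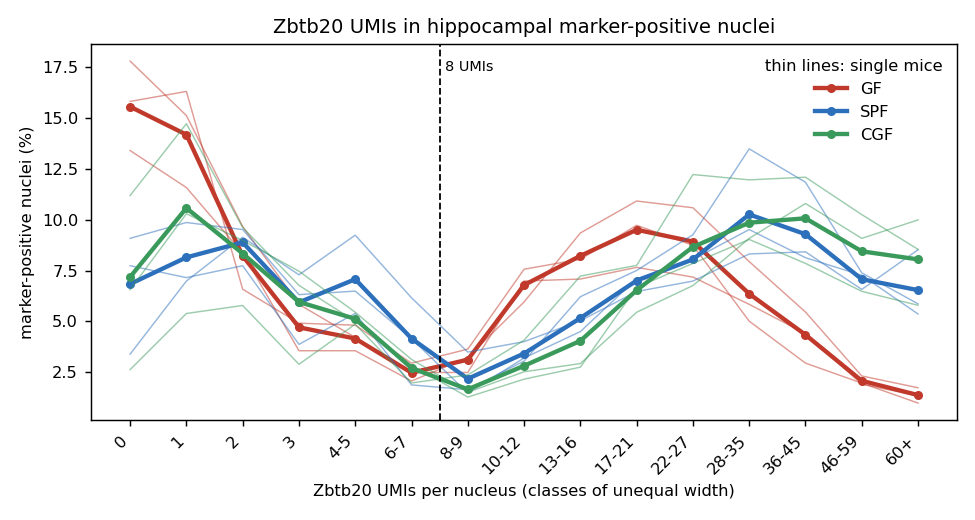
Share of marker-positive nuclei (y axis, percent) in classes of Zbtb20 UMIs per nucleus (x axis, classes of unequal width), with thick lines for the 3 groups and thin lines for single mice. The classes widen to the right, which raises the shares there. The dashed line stands at 8 UMIs, with 56.3% of all members on its right.

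The nuclei with 8 or more Zbtb20 UMIs carried the CA1 markers that the rule did not use. Man1a, a Golgi mannosidase, had a median over the 9 mice of 719 CPM in them, against 261 CPM below 8 UMIs, 24.9 CPM in granule nuclei (2 or more Prox1 UMIs) and 139 CPM in CA3 nuclei (2 or more UMIs of Cpne4, Bok and Iyd). Spink8, a protease inhibitor, stood at 20.9 CPM in them and at 7.42, 7.19 and 9.83 CPM in the same other classes. Of the genes of the rule, Fibcd1 stood at 51.7 CPM above and 15.6 CPM below the limit, Wfs1 at 44.1 and 32.3 CPM, and Mpped1 went the other way with 233 and 284 CPM.

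Below 8 Zbtb20 UMIs, several genes from the subiculum and cortex lists stood higher, while genes such as Stac (96.4 CPM below and 90.3 CPM above), Ndst3 and Pde11a hardly followed the division. Tshz2, a zinc-finger gene of the subiculum list, had a median of 1119 CPM there and 59.1 CPM in nuclei with more Zbtb20. Fn1, which encodes fibronectin and marks the dorsal subiculum, had 82.1 and 4.09 CPM, and Slc17a6, the second vesicular glutamate transporter (VGLUT2), had 29.9 and 6.96 CPM. The upper-layer cortical gene Cux2 had 88.6 and 9.54 CPM, with a spread from 12.5 to 143 CPM among the mice in the low range. Applied to PFC nuclei, which hold no CA1 neurons, the same UMI rule selected 8847 nuclei with 358 CPM of Mpped1, 104 CPM of Zbtb20 and 1.10 CPM of Spink8. The label of CA1 pyramidal neurons therefore held for markers of the high Zbtb20 range and not for the members as a whole, and each comparison below was repeated in that range. Zbtb20 was itself lower in GF than in SPF mice (-0.59, adjusted p = 0.013) and GF nuclei held fewer UMIs, so the groups also differ in which nuclei reach 8 UMIs, and the repeat does not stand apart from that difference.

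**Figure D2:**
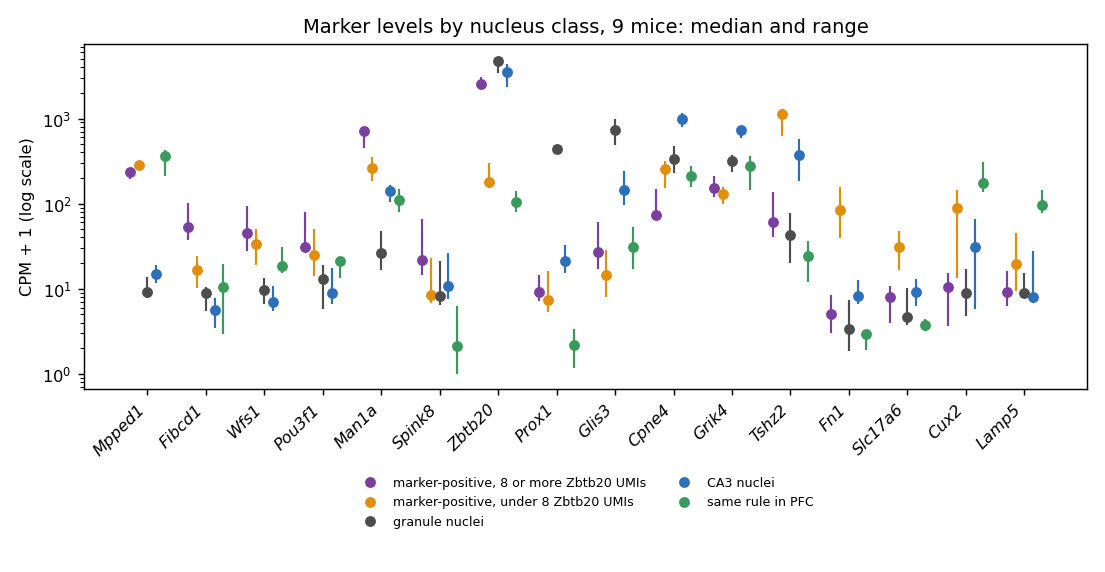
Marker levels (y axis, CPM + 1, log scale) in 5 classes of nuclei, shown as the median (point) and the range (line) over 9 mice. Man1a and Spink8 stand highest in marker-positive nuclei with 8 or more Zbtb20 UMIs, whereas Tshz2, Fn1 and Slc17a6 stand highest in those with fewer.

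The genes that most set the members apart from granule and CA3 nuclei were found by their levels, with no test. By the lowest ratio over the 9 mice they were Mpped1, Gm2164, 1700057H15Rik, Stac, Galntl6, Gm26905, Pde11a, Gpr161, Gm2115, Wfs1, Ndst3 and Tenm3. Mpped1 and Wfs1 are genes of the rule. Granule and CA3 nuclei were in turn held to at most 1 UMI of Mpped1, Fibcd1 and Wfs1 in sum. The places of Mpped1 and Wfs1 were thus fixed by the selection. Galntl6, a relative of the enzymes that start mucin-type glycosylation, had a median of 3615 CPM in the members, 219 CPM in granule and 715 CPM in CA3 nuclei. Galntl6 also divided the members, with 5665 CPM at 8 or more Zbtb20 UMIs and 1188 CPM below. Tenm3, a teneurin that guides the wiring of proximal CA1 to the subiculum, had 1238 CPM in the members, with 995 CPM in the high and 1712 CPM in the low Zbtb20 range. Stac, an adaptor of voltage-gated calcium channels, had 92.6 CPM in the members and 12.8 CPM in CA3 nuclei. Gm2164 lies antisense and counting by strand is not stated, so its 420 CPM may include reads of other transcripts of the locus.

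Markers of other cells were low but not absent. None of the lists of 4 to 8 markers of interneurons, astrocytes, oligodendrocytes, oligodendrocyte precursors (OPC), microglia, vessels, choroid plexus and blood held a marker at 0 in all members, and Neurod1, of the pan-pyramidal list, was listed at 0 in every class. The summed level of the 6 choroid plexus and blood markers ran from 35.5 to 1465 CPM in GF mice, 76.3 to 540 CPM in SPF mice, and 31.4 to 182 CPM in CGF mice, with Ttr alone from 2.53 to 1268 CPM (TMM-scaled) over the 9 mice.

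Marker-positive nuclei made up 14.9%, 11.6% and 12.1% of kept Hip nuclei in the GF mice, and their share did not differ detectably among the groups. The means were 12.9% ± 1.76 (SD, n = 3) in GF mice, 13.3% ± 2.77 in SPF mice, and 12.1% ± 3.01 in CGF mice, with p = 0.821 in an exact permutation test over the 3 groups (two-sided). The rule counts UMIs and so selects more from deeper nuclei. When nuclei were thinned to 3000 UMIs first, which left out 17497 shallower nuclei and kept 53901, the share was 3.93% ± 0.313 in GF mice, 3.00% ± 0.279 in SPF mice, and 2.39% ± 0.163 in CGF mice (n = 3 each), with p = 0.00357 in the exact permutation test. GF then stood 0.934 percentage points above SPF in place of a difference of -0.470, a change that covers both the thinning and the loss of shallow nuclei, and no pair of groups can reach a p under 0.1 with 3 mice against 3.

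Members of GF mice held fewer UMIs, but this fall was not confined to the members. The median per nucleus was 9177 ± 570 (SD, n = 3) in GF mice, 11694 ± 622 in SPF mice, and 11858 ± 1562 in CGF mice, with p = 0.0464 over the 3 groups in the exact permutation test. The GF mice spanned 8541 to 9643 UMIs and lay below both other groups, whose values overlapped, and each pair with GF gave p = 0.1 (adjusted 0.15) in the exact permutation test, the smallest that 3 against 3 allow. Leaving out any GF mouse, SPF mouse 30 or 31, or CGF mouse 18 raised the p over the groups to between 0.05 and 0.125. Other nuclei of the GF libraries were shallower as well. For granule nuclei the highest median of a GF mouse was 6792 UMIs, and the lowest of any other mouse was 7482. For CA3 nuclei the same limits were 8180 and 8324 UMIs. The lower depth was thus shared by these classes, and whether its size differed among them was not tested.

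Several library measures moved with the groups, and their part in the results was not tested. Mitochondrial UMIs made up 0.271% to 0.647% of the members' UMIs in GF mice, 0.0713% to 0.385% in SPF mice, and 0.0441% to 0.108% in CGF mice. Gm42418, a transcript that overlaps ribosomal RNA repeats, took 0.0152% to 0.0195% in GF and 0.0363% to 0.114% in SPF mice. The first principal component of the members (48.4% of the variance) set the 3 GF mice apart from the other 6. Any pair of Hip libraries shared 9 to 29 cell barcodes, of which 0 to 3 were members in both. Nothing in the labels says that the mice came from separate litters or cages, so p-values measure the spread between these mice.

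The comparison of GF with SPF mice asks how nuclei of this kind differ where no microbiota is present. UMIs were summed per mouse and tested with edgeR across 15601 genes at an adjusted p of 0.05. The test called 6413 genes, 41.1% of those tested, of which 3500 (22.4%) were higher and 2913 (18.7%) lower in GF mice. The excess of rises depended on the scaling. With RLE scaling 3280 were higher and 3243 lower, and with DESeq2 2990 and 3061, at a median of all genes of -0.01 in each. In members with 8 or more Zbtb20 UMIs 6340 of 14334 genes were called, and in those with fewer 3858 of 13888. Counts of members of a gene list below are read against these shares.

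Direction went with gene length. Among 3556 genes that span under 10 kb, 1699 were higher and 79 lower in GF mice, with a median log2 fold change of 0.60. Of 2591 genes spanning 100 kb or more, 101 were higher and 1222 lower, with a median of -0.33. Granule nuclei of the same libraries had medians of 0.68 and -0.36 for these classes, and CA3 nuclei 0.67 and -0.37. When a trend in length and GC content was removed in the fit, the calls became 1157 higher and 3658 lower, 24.0% higher in place of 54.6%, and the median of all genes moved from 0.03 to -0.18. For each gene group the median after this removal is therefore given too, to be read against -0.18. In this comparison, calls of named list genes lost in this way are given as such. Each gene was still tested against 0 there, so falls passed and rises were lost more readily than around a median of 0.

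**Figure D3:**
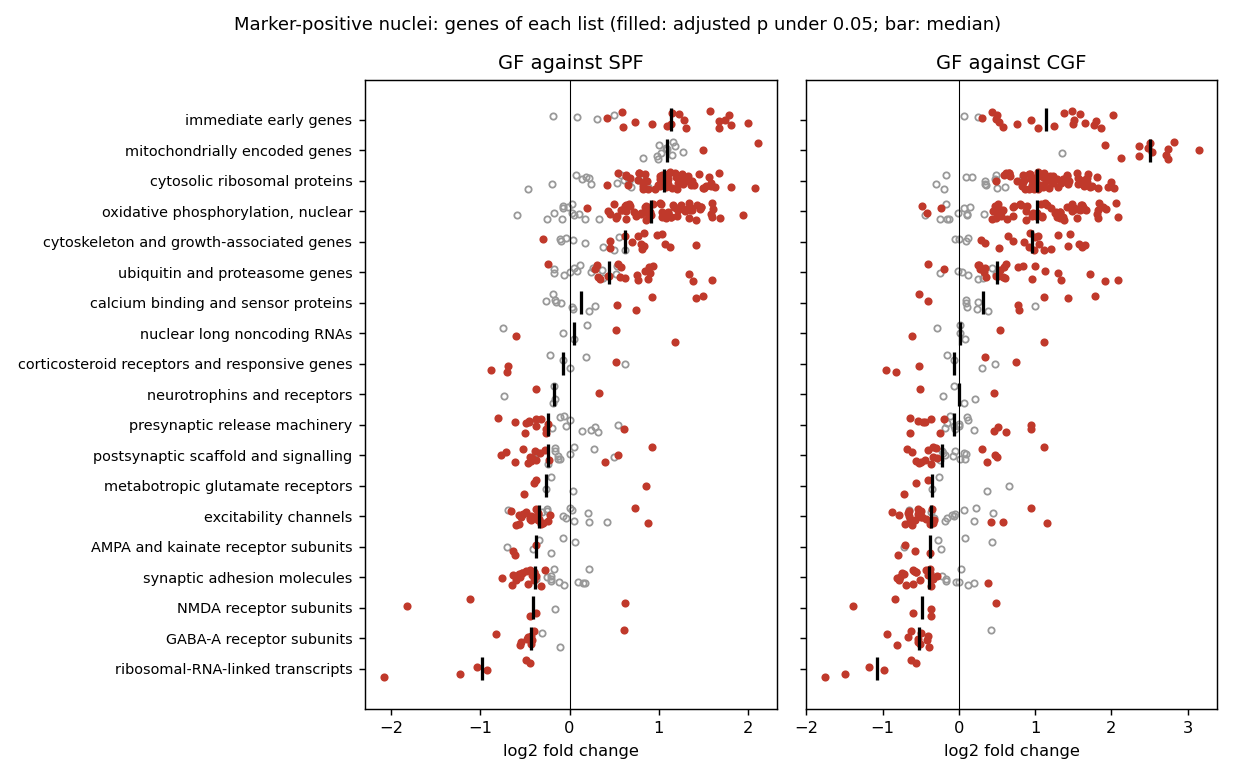
Log2 fold changes (x axis) of the genes of 19 functional lists (rows) in marker-positive nuclei, GF against SPF on the left and GF against CGF on the right. Filled points passed an adjusted p of 0.05, open points did not, and the bar is the median of the list. Immediate early, ribosomal and oxidative phosphorylation genes lie to the right, and receptor, adhesion and channel genes mostly to the left. With the length and GC trend removed the ribosomal median against CGF was -0.05, and that of all genes was -0.23.

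Subunits of AMPA receptors, which carry fast excitatory transmission, and of kainate receptors gave 0 higher and 3 lower of 9 tested genes, with a median of -0.37 on the log2 scale (-0.14 with the trend removed, 0 higher and 2 lower, median span 319 kb). Gria1 (GluA1), the subunit that is inserted during potentiation, had 2201, 1806 and 1975 CPM in GF mice, 2838, 3240 and 3069 CPM in SPF mice, and 3235, 3084 and 4040 CPM in CGF mice. All GF mice lay below all others, and Gria1 fell by 0.61 ± 0.11 (log2, SE, adjusted p = 0.0019). With the trend removed, where all genes had a median of -0.18, the fall passed narrowly (-0.41, adjusted p = 0.041). Gria3 fell by 0.63 and Grik2 by 0.37, of which the second was lost with the trend removed, whereas Gria2, which sets calcium permeability, had a log2 fold change of -0.21 and did not pass (adjusted p = 0.18).

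NMDA receptor subunits, the coincidence detectors of potentiation, gave 1 higher and 4 lower of 6 tested genes (median -0.41, -0.38 with the trend removed, 1 higher and 3 lower). Grin2a had 2696, 2304 and 2455 CPM in GF and 3085, 3397 and 3182 CPM in SPF mice, without overlap, and fell by 0.37 (adjusted p = 0.0098), a call lost with the trend removed. The obligatory subunit Grin1 fell by 0.44 and Grin2b had a log2 fold change of -0.17 that did not pass (adjusted p = 0.077). The widest change at a level above 20 CPM was in Grin3a, a modulatory subunit of immature synapses, with 52.6, 58.0 and 59.5 CPM in GF mice, 136, 126 and 106 CPM in SPF mice, and 114, 103 and 85.6 CPM in CGF mice. Grin3a fell by 1.11 ± 0.12 (adjusted p = 0.00013), and by 0.96 with the trend removed. Metabotropic receptors gave 1 higher and 3 lower of 7 genes (median -0.27, -0.11 with the trend removed, 1 higher and 1 lower), with falls of Grm5 by 0.40 and Grm7 by 0.37, both lost with it, while Grm8 had -0.21 (adjusted p = 0.36).

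GABA-A receptor subunits, the chloride channels of fast inhibition, gave 1 higher and 9 lower of 12 tested genes, with a median of -0.43 (-0.23 with the trend removed, 0 higher and 5 lower). Gabra2 had 433, 368 and 376 CPM in GF mice, 569, 609 and 547 CPM in SPF mice, and 736, 633 and 691 CPM in CGF mice. The GF values lay below those of both other groups, and Gabra2 fell by 0.55 ± 0.09 (adjusted p = 0.00089). The beta subunits Gabrb1 and Gabrb2 fell by 0.48 and 0.46, Gabrg3 by 0.39, and Gabra5, which is typical of extrasynaptic receptors in CA1, by 0.43. Gabrd, the delta subunit of tonic inhibition, rose by 0.62 from a level near 9 CPM. The calls of Gabrb1, Gabrg3 and Gabrd were lost with the trend removed.

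Postsynaptic scaffold and signalling genes were divided, with 3 higher and 13 lower of 27 (median -0.24, -0.14 with the trend removed, 3 higher and 5 lower). The scaffold Dlg2 (PSD-93) had 5137, 4530 and 4790 CPM in GF and 6898, 6882 and 6170 CPM in SPF mice and fell by 0.46 (adjusted p = 0.0013). Dlgap1 fell by 0.43, the calcineurin subunit Ppp3ca by 0.52 and Dlgap2 by 0.23. In the opposite direction, Dlg4 (PSD-95) rose by 0.40 and neurogranin, Nrgn, by 0.92. Of these 6 genes only Dlg4 passed with the trend removed. Camk2a, the kinase of potentiation, had 984, 903 and 1061 CPM in GF and 934, 1018 and 978 CPM in SPF mice, groups that overlapped (log2 fold change 0.01, adjusted p = 0.95).

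Presynaptic release genes gave 1 higher and 12 lower of 23 (median -0.24, -0.22 with the trend removed, 0 higher and 9 lower). The calcium sensor Syt1 had 2887, 2436 and 2742 CPM in GF and 4021, 3748 and 3633 CPM in SPF mice and fell by 0.50 (adjusted p = 0.0011). The active-zone genes Rims1, Rims2 and Pclo fell by 0.46, 0.45 and 0.38 and the SNARE Snap25 by 0.26, while the synapsin Syn2 had -0.19 (adjusted p = 0.088). The vesicle SNARE Vamp2 rose by 0.61 and had -0.31 with the trend removed (adjusted p = 0.036), where all genes had a median of -0.18. Snap25 passed narrowly then (-0.21, adjusted p = 0.048), at a value close to that median, and Syt1, Rims1, Rims2 and Pclo did not.

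Of the list groups that mostly fell, synaptic adhesion genes had the longest spans (median 847 kb), with 0 higher and 18 lower of 30 and a median of -0.39 (-0.19 with the trend removed, 0 higher and 6 lower). Lsamp had 9650, 7508 and 8066 CPM in GF and 11814, 13963 and 11716 CPM in SPF mice and fell by 0.57 (adjusted p = 0.0024). Tenm2, a teneurin that binds latrophilins across the synapse, fell by 0.44, Opcml by 0.53 and the neurexin Nrxn3 by 0.65, whereas Ptprd had -0.20 with overlapping groups (adjusted p = 0.40). None of these genes passed with the trend removed. In the high Zbtb20 range 24 of the 30 genes were lower.

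Ion channels that set excitability gave 2 higher and 21 lower of 35 tested genes (median -0.34, -0.21 with the trend removed, 2 higher and 8 lower). Kcnma1, the large-conductance calcium-activated potassium channel, had 1235, 1169 and 1306 CPM in GF mice, 2082, 1868 and 1881 CPM in SPF mice, and 1982, 2016 and 1821 CPM in CGF mice. GF mice did not overlap with either group, and Kcnma1 fell by 0.65 ± 0.08 (adjusted p = 0.00022). The M-current genes Kcnq3 and Kcnq5 fell by 0.57 and 0.53, and Kcnd2, of the A-type current of CA1 dendrites, by 0.49. Hcn2, a channel of the hyperpolarization-activated current, rose by 0.73. Kcnma1, Kcnq3 and Hcn2 passed with the trend removed and Kcnq5 and Kcnd2 did not. Kcnip4, an auxiliary subunit of A-type channels, had -0.25 (adjusted p = 0.067).

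Calcium-binding and sensor proteins gave 5 higher and 0 lower of 14, and their median of 0.13 turned negative without GF mouse 6 or without SPF mouse 31. With the trend removed 3 were higher and 2 lower, at a median of 0.01. Calmodulin 2, Calm2, had 529, 581 and 547 CPM in GF and 295, 329 and 366 CPM in SPF mice and rose by 0.74 (adjusted p = 0.00039). Hpca (hippocalcin) rose by 0.53, a call lost with the trend removed, whereas Vsnl1 and Caln1 had -0.27 and -0.19 and did not pass (adjusted p = 0.11 for each).

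Immediate early genes, which neurons switch on within minutes of activity, rose in GF mice with 18 higher and 0 lower of 22 and a median log2 fold change of 1.14. Junb, an AP-1 transcription factor, had 86.9, 54.8 and 53.3 CPM in GF mice, 24.0, 18 and 13.2 CPM in SPF mice, and 23.3, 21.2 and 11.9 CPM in CGF mice. Each GF mouse exceeded every other mouse, and Junb rose by 1.81 ± 0.27 (adjusted p = 0.00064). Arc, which drives AMPA receptor endocytosis, had 77.2, 44.5 and 47.5 CPM in GF and 17.4, 22.6 and 10.7 CPM in SPF mice and rose by 1.74 (adjusted p = 0.001). Smaller rises were those of Egr1 (0.92) and Nr4a2 (0.42). The other 4 did not pass, with 0.50 for Homer1 (adjusted p = 0.051), 0.31 for Nr4a1, 0.08 for Nr4a3 and -0.19 for Bdnf, the activity-induced neurotrophin. These are short genes, with a median span of 5.29 kb, and with the length and GC trend removed 2 of the 22 were higher, Dusp1 (1.14) and Homer1 (0.60), at a list median of 0.42. The list medians in granule and CA3 nuclei were 1.01 and 1.04.

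Both corticosteroid receptors fell. Nr3c2, the mineralocorticoid receptor, had 636, 423 and 483 CPM in GF mice, 781, 1101 and 958 CPM in SPF mice, and 1058, 864 and 1076 CPM in CGF mice, and fell by 0.88 ± 0.16 (adjusted p = 0.0018). Nr3c1, the glucocorticoid receptor, had 87.4, 69.8 and 80.9 CPM in GF and 125, 147 and 116 CPM in SPF mice and fell by 0.70 (adjusted p = 0.00061). GF values lay below all others for both genes, and both falls passed with the trend removed (-0.67 and -0.58). The responsive kinase gene Sgk1 fell by 0.69, and the clock gene Per1 rose by 0.52, of which only the first passed with the trend removed. Fkbp5 (0.01), Zbtb16 (-0.07) and Klf9 (0.18) did not pass, and the list held 1 higher and 3 lower of 9, at a median of -0.07 that turned positive with the trend removed, after thinning to 3000 UMIs and in the low Zbtb20 range. Of 6 tested neurotrophin genes, the receptor Ntrk2 (TrkB) rose by 0.33 and Ntrk3 (TrkC) fell by 0.38, while Sort1 had -0.17 (adjusted p = 0.091), with a list median of -0.18 (-0.13 with the trend removed, where only Ntrk2 passed).

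Housekeeping lists of short genes were mostly higher in GF mice. Cytosolic ribosomal proteins gave 62 higher and 0 lower of 78 tested genes, with a median of 1.06, and nuclear-encoded oxidative phosphorylation genes gave 62 and 0 of 75, with a median of 0.92. Rpl6 had 68.4, 80.4 and 64.5 CPM in GF mice, 27.7, 27.4 and 27.7 CPM in SPF mice, and 30.7, 34.0 and 34.5 CPM in CGF mice, and rose by 1.36 ± 0.09 (adjusted p = 2.8e-05). Cox8a, a small subunit of cytochrome c oxidase, had 173, 230 and 221 CPM in GF and 66.6, 67.1 and 112 CPM in SPF mice and rose by 1.35. Rpl41, Rpl14 and Rplp1 rose by 1.23, 1.28 and 1.01, and of the abundant oxidative phosphorylation genes Atp5o rose by 0.62, Atp5b by 0.44 and Ndufs4 by 0.19. With the trend removed the medians were 0.09 and 0.23, with 11 higher and 4 lower ribosomal and 23 higher and 6 lower oxidative phosphorylation genes. Of the genes named, only Rpl6 and Ndufs4 then passed.

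Ubiquitin and proteasome genes gave 20 higher and 1 lower of 34 (median 0.44), and cytoskeleton and growth-associated genes 14 higher and 1 lower of 24 (median 0.62). The polyubiquitin gene Ubb had 298, 389 and 345 CPM in GF and 97.9, 102 and 195 CPM in SPF mice and rose by 1.39. Tmsb4x, which sequesters actin monomers, had 570, 683 and 721 CPM in GF and 183, 207 and 347 CPM in SPF mice and rose by 1.42. The proteasome subunit Psma3 rose by 0.63, Psmd14 fell by 0.25 and Psmb2 had -0.07 (adjusted p = 0.53). Of the microtubule-associated proteins, Map1b fell by 0.30, while Map2 and Mapt (tau) had -0.11 and -0.04 and did not pass. With the trend removed 6 ubiquitin and proteasome genes were higher and 4 lower, at a median of -0.05. Of the cytoskeletal genes 1 was higher and 1 lower (median 0.01), and the median of all genes was then -0.18. Of the genes named only Psma3 then passed.

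The 13 genes of the mitochondrial genome had a median of 1.09, with 2 higher and 0 lower, and with the trend removed 0 were called, at a median of -0.19. mt-Co3 had 734, 1524 and 1611 CPM in GF mice, 355, 165 and 845 CPM in SPF mice, and 91.2, 124 and 224 CPM in CGF mice, so GF mouse 5 lay below SPF mouse 32. mt-Atp6, mt-Co2 and mt-Co1 had 1.28, 1.15 and 0.98 and did not pass. Nuclei hold no mitochondria, and these genes make up the mitochondrial shares of the libraries given above.

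Among nuclear long noncoding RNAs (2 higher and 1 lower of 7, median 0.06, -0.10 with the trend removed), Malat1 set GF mice apart. Its 68046, 62732 and 57114 CPM in GF mice stood against 28194, 27819 and 26396 CPM in SPF and 27059, 28848 and 30965 CPM in CGF mice. Malat1, a nuclear-retained transcript of splicing speckles, rose by 1.19 ± 0.09 (adjusted p = 3.7e-05), and by 0.50 with the trend removed. Snhg11 rose by 0.52, a call lost with the trend removed, and Miat had -0.08 (adjusted p = 0.55). The maternally expressed Mirg fell by 0.61 and Meg3 of the same imprinted domain had 0.06 (adjusted p = 0.66). The 6 transcripts linked to ribosomal RNA repeats were all lower, with a median of -0.98 (-0.84 with the trend removed, 5 lower), and Gm42418 had 145, 176 and 157 CPM in GF and 519, 379 and 1133 CPM in SPF mice. Cmss1 fell by 1.04, Gphn, which also encodes the inhibitory scaffold gephyrin, by 0.48 and Camk1d by 0.44, the last of which was lost with the trend removed.

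**Figure D4:**
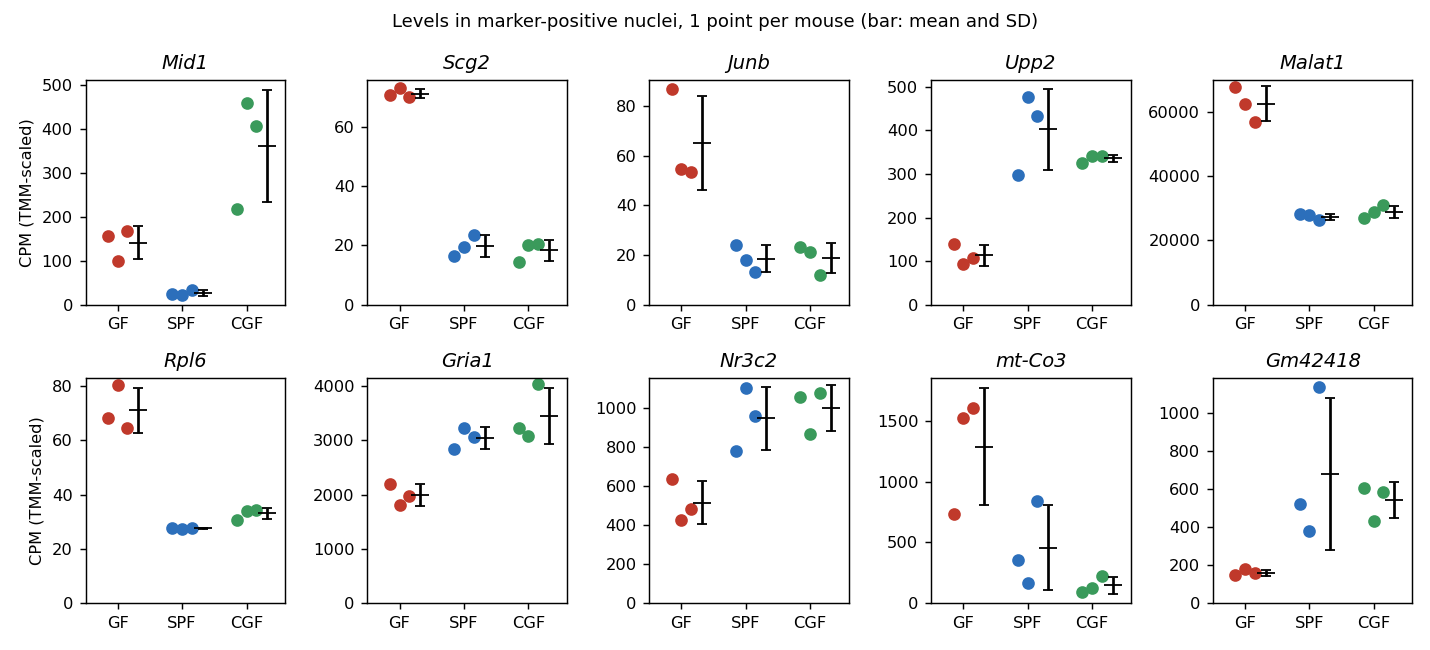
Levels (y axes, CPM with TMM scaling, from 0) of 10 genes in marker-positive nuclei, with 1 point per mouse and the mean and SD of 3 mice as a bar beside them. GF mice lie apart from both other groups for 8 of these genes, Mid1 differs among all 3 groups, and mt-Co3 overlaps between GF and SPF mice.

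Among genes at 20 CPM or more whose groups did not overlap, clone and predicted names such as Gm42418 left out, the largest rises in GF against SPF mice were in Mid1, Gabarapl2, Plekhj1, Edf1, Ssbp4, Scg2, Junb and Ctsl, with log2 fold changes from 1.75 to 2.42. Mid1 (GRCm38 chromosome X, 169685199 to 170005736), a microtubule-bound ubiquitin ligase, is described with the CGF mice below. Gabarapl2, of the autophagy-related ATG8 family, had 78.6, 62.8 and 57.0 CPM in GF and 13, 16.5 and 20.6 CPM in SPF mice. Scg2, the granin of dense-core vesicles, had 71.0, 73.2 and 70.1 CPM in GF mice, 16.4, 19.6 and 23.6 CPM in SPF mice, and 14.4, 20.2 and 20.5 CPM in CGF mice, and rose by 1.85 ± 0.15 (adjusted p = 4.7e-05). The lysosomal protease gene Ctsl rose by 1.75.

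The largest falls by the same rule were in Upp2, Nxph1, Ppp1r14c, Erbb4, Plekhg1, AY036118 and Gpc4, from -1.83 to -1.22. Upp2, a uridine phosphorylase, had 139, 93 and 106 CPM in GF mice, 298, 477 and 433 CPM in SPF mice, and 326, 340 and 341 CPM in CGF mice and fell by 1.83 ± 0.18 (adjusted p = 9.5e-05). Gpc4, a heparan sulphate proteoglycan that astrocytes also release to recruit AMPA receptors, fell by 1.22.

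Several of these genes are markers of other cells. Nxph1 and Erbb4 belong to the interneuron list, of which 2 were higher and 3 lower of 8, with a summed level of 152 to 184 CPM in GF mice, 184 to 414 CPM in SPF mice, and 174 to 285 CPM in CGF mice. The oligodendrocyte list gave 0 higher and 2 lower of 5, with 140 to 155 CPM in GF mice, 171 to 295 CPM in SPF mice, and 148 to 204 CPM in CGF mice. The astrocyte list gave 0 higher and 3 lower of 6, at 160 to 271 CPM in GF and 141 to 257 CPM in SPF mice. The part of other cells' RNA in these falls was not tested.

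Of the remaining identity lists some held calls in both directions and others in a single direction. In GF against SPF mice the CA1 markers outside the rule gave 1 higher and 2 lower of 5, with a rise of Pou3f1 by 0.94 and falls of Man1a by 0.57 and Zbtb20 by 0.59. Of the pan-pyramidal genes 1 was higher and 4 were lower of 7, of CA2 markers 1 and 0 of 6, of CA3 markers 2 and 3 of 7, of granule markers 0 and 3 of 8, of subiculum markers 1 and 0 of 4 and of cortical layer markers 1 and 0 of 6. Microglial markers gave 1 higher and 1 lower of 6, with a summed level of 56.6 to 63.9 CPM in GF mice that lay above the 42.2 to 49.2 CPM of SPF and the 43.9 to 53.1 CPM of CGF mice, and the part of such RNA was not tested. OPC markers 0 and 2 of 4, endothelial and mural markers 0 and 1 of 5, and choroid plexus and blood markers 2 and 1 of 6. The pan-pyramidal and CA3 lists, with 5 of 7 genes called each, and the CA1, OPC and choroid plexus and blood lists lay above the 41.1% called among all genes.

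GF mice were next compared with CGF mice, which began life germ-free and were later housed with SPF mice. Of 15601 genes 6587 (42.2%) were called, 3553 (22.8%) higher and 3034 (19.4%) lower in GF mice, and 991 higher and 4588 lower with the trend removed. The split was 3306 higher and 3280 lower with RLE scaling, and 3058 and 3095 with DESeq2. This comparison shares the GF mice with the previous comparison, so the values of each are given side by side and no overlap is drawn from them. Immediate early genes gave 20 higher and 0 lower of 22 (median 1.14), ribosomal proteins 62 and 0 of 78 (1.03, turning to -0.05 with the trend removed, 13 higher and 7 lower), and oxidative phosphorylation genes 61 and 3 of 75 (1.03). With the trend removed, where the median of all genes was -0.23, 2 immediate early genes were higher (median 0.21). Of the oxidative phosphorylation genes 26 were then higher and 10 lower (0.18). GABA-A subunits gave 0 higher and 11 lower of 12 (median -0.52, and 9 lower with the trend removed), NMDA subunits 1 and 5 of 6 (-0.48), AMPA and kainate subunits 0 and 4 of 9 (-0.38) and metabotropic receptors 0 and 3 of 7 (-0.35).

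Adhesion genes gave 1 higher and 20 lower of 30 against CGF (median -0.39), channels 4 and 19 of 35 (-0.37), postsynaptic genes 5 and 12 of 27 (-0.22) and presynaptic genes 5 and 8 of 23 (-0.06). Gria1 fell by 0.79, Gabra2 by 0.81, Nr3c2 by 0.96 and Nr3c1 by 0.83, the corticosteroid list giving 2 higher and 3 lower of 9. Cytoskeletal genes gave 20 higher and 0 lower of 24 (0.96), ubiquitin and proteasome genes 23 and 2 of 34 (0.50), calcium-binding proteins 5 and 2 of 14 (0.32), neurotrophin genes 1 and 1 of 6 (-0.00), long noncoding RNAs 2 and 1 of 7 (0.02) and the rRNA-linked transcripts 0 and 6 of 6 (-1.08). With the trend removed 2 cytoskeletal genes were higher and 1 lower (median 0.10), 8 and 5 of the ubiquitin and proteasome genes (0.03), and 3 and 3 of the calcium-binding proteins (0.03). Of the lists that mostly fell, 0 adhesion genes were then higher and 11 lower (-0.23), 2 and 15 of the channels (-0.29), 1 and 9 of the postsynaptic (-0.18), 0 and 6 of the presynaptic (-0.15), 0 and 4 of the NMDA (-0.53) and 0 and 3 of the AMPA and kainate genes (-0.21). The metabotropic receptors then gave 0 and 1 (-0.17) and the rRNA-linked transcripts 0 and 6. The medians of the neurotrophin genes, the long noncoding RNAs and the corticosteroid genes (-0.06) changed sign under 5 to 7 of the 21 alternatives.

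The largest rises in GF against CGF mice were all mitochondrial, mt-Co3, mt-Cytb, mt-Nd3, mt-Nd1, mt-Co2, mt-Atp6, mt-Nd4 and mt-Co1, from 2.36 to 3.14. Of the 13 mitochondrial genes 12 were higher and 0 lower, with a median of 2.50 (0.83 with the trend removed, 3 higher). mt-Cytb had 265, 599 and 639 CPM in GF and 44.8, 59.0 and 111 CPM in CGF mice, without overlap. The largest falls, with clone and predicted names left out, were in Upp2, AY036118, Pde11a, Mid1, Fbxl4, Slc1a3, Plekhg1 and Dnah6. Pde11a, a phosphodiesterase of cyclic nucleotides that is typical of ventral CA1 and subiculum, had 64.2, 70.4 and 67.5 CPM in GF mice, 115, 163 and 149 CPM in SPF mice, and 190, 154 and 210 CPM in CGF mice. It fell by 1.45 ± 0.14 against CGF (adjusted p = 6.9e-05) and by 1.08 against SPF mice. Slc1a3, the astrocyte glutamate transporter, had 12.7, 17.4 and 11.3 CPM in GF and 30.2, 36.2 and 35.7 CPM in CGF mice, while the summed astrocyte markers overlapped at 160 to 271 and 143 to 186 CPM, and their part was not tested. Without CGF mouse 19, 6052 genes were called.

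Of the identity lists, microglial markers gave 4 higher and 1 lower of 6 in GF against CGF mice, interneuron markers 4 and 2 of 8, astrocyte markers 1 and 3 of 6, choroid plexus and blood markers 2 and 1 of 6, oligodendrocyte markers 0 and 1 of 5, OPC markers 0 and 1 of 4, and endothelial and mural markers 0 and 0 of 5. The CA1 markers outside the rule gave 1 and 2 of 5, pan-pyramidal genes 1 and 2 of 7, CA2 markers 1 and 0 of 6, CA3 markers 2 and 2 of 7, granule markers 0 and 3 of 8, subiculum markers 1 and 1 of 4 and cortical layer markers 1 and 0 of 6.

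Few genes passed between CGF and SPF mice in these nuclei. The test called 46 of 15601 genes (0.295%), 32 higher and 14 lower in CGF mice, with 2002 genes at an unadjusted p under 0.05. None of the 19 functional lists held a called gene in this comparison, and the median of the immediate early genes was 0.01, that of GABA-A subunits 0.15 and that of mitochondrial genes -1.38. DESeq2 called 202 genes. The count fell to 25 without SPF mouse 30, to 17 without CGF mouse 17 and to 16 without CGF mouse 18, and it was 31 without CGF mouse 19. In the high Zbtb20 range 104 genes were called, of which 39 were among the 46.

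Mid1 stood out in this comparison. It had 156, 99.0 and 168 CPM in GF mice, 24.5, 20.8 and 33.9 CPM in SPF mice, and 217, 458 and 407 CPM in CGF mice. No 2 groups overlapped, with SPF lowest and CGF highest. Mid1 was higher in CGF than in SPF mice by 3.77 ± 0.31 (log2, SE, adjusted p = 0.00085), higher in GF than in SPF mice by 2.42 ± 0.30 (adjusted p = 0.00023), and lower in GF than in CGF mice by 1.35 ± 0.28 (adjusted p = 0.0027). In the high Zbtb20 range the differences were 3.64, 2.17 and -1.46. Part of Mid1 lies in the pseudoautosomal region of the reference strain, so reads of its X and Y copies cannot be told apart.

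Other rises in CGF against SPF mice were smaller. The antisense genes Plxna4os3, Far1os and Sorbs2os were higher by 0.85, 0.74 and 0.68, but without a stated strand their reads cannot be told from those of their partners. Fhit, a dinucleoside hydrolase, was higher by 0.61, Wdr78 by 0.52, and Lrpprc, which stabilizes mitochondrial messenger RNAs, by 0.45. Lrpprc had 70.0, 63.1 and 74.9 CPM in GF mice, 78.8, 77.6 and 81.0 CPM in SPF mice, and 112, 106 and 107 CPM in CGF mice, without overlap among the groups. Zfp846 was lower by 0.98, Pmepa1, an inhibitor of TGF-beta signalling, by 0.80 and the actin-binding Coro1c by 0.56. Zfp846 had 18.6, 17.4 and 16.6 CPM in CGF and 28.7 to 40.6 CPM in the other 6 mice.

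Whether the GF against SPF difference was particular to these nuclei was tested as an interaction with granule nuclei and with CA3 nuclei of the same libraries, with the mouse as a block. Against the 5532 granule nuclei 84 of 15498 genes (0.542%) differed in their GF against SPF change, 20 with a higher and 64 with a lower value in marker-positive nuclei, and the split was 21 and 29 with RLE scaling and 30 and 19 without GF mouse 6. Without GF mouse 7 only 17 were called, and 33 without SPF mouse 30. Against the 8005 CA3 nuclei 7 of 15948 genes (0.0439%) did, 3 with a higher and 4 with a lower value, and none did when nuclei were thinned to 3000 UMIs (612 at an unadjusted p under 0.05). Of the functional lists, Kcnc2, Kcnip4 and Map1b differed from granule nuclei and no gene differed from CA3 nuclei. None of the immediate early, GABA-A, glutamate receptor, adhesion, ribosomal or oxidative phosphorylation genes was called in either test, and a p that misses the threshold does not show that the classes changed alike.

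Clmp, an adhesion molecule of cell junctions, was called against both. Its log2 fold change was -0.91 in marker-positive nuclei and 0.62 in granule nuclei, a difference of -1.62 ± 0.22 (adjusted p = 0.0043), and -0.13 in CA3 nuclei (adjusted p = 0.37, difference -0.81, adjusted p = 0.0012). The members had 22.0, 22.4 and 18.1 CPM in GF and 35.7, 46.8 and 41.8 CPM in SPF mice, and granule nuclei had 20.7, 23.5 and 19.8 CPM in GF and 15.5, 10.0 and 16.6 CPM in SPF mice. The direction was thus opposite, without overlap of the groups in either class. Palmd changed by -0.57 and 0.67 (difference -1.33) and Lzts1, a postsynaptic zipper protein, by -0.41 and 0.43 (difference -0.90), while Fam13a fell by 0.83 in the members and had 0.16 in granule nuclei (adjusted p = 0.41, difference -1.05).

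Several other genes fell in granule nuclei more than in the members. Kcnc2, the fast potassium channel Kv3.2, changed by -0.36 in marker-positive and by -1.48 in granule nuclei (difference 1.03, adjusted p = 0.048). Mdga1, which blocks neuroligin from binding neurexin, had 0.23 and -1.20, Lhfp 0.02 and -1.35, Pitpnm3 -0.01 and -1.36, the protease inhibitor Serpine2 0.36 and -0.77, and Sntg2 -0.22 and -1.29, of which only the granule values passed. The reverse held for Slc1a3 and St18. Slc1a3, an astrocyte marker at 11.2 to 45.4 CPM in the members, had -1.21 and -0.38, and the part of astrocyte RNA was not tested. St18, which stands in the oligodendrocyte list but had a median of 256 CPM in granule nuclei against 23.2 CPM in the members, had -0.89 and 0.01. Mean granule CPM in GF, SPF and CGF mice was 13.4, 33.9 and 14.4 for Lhfp and 7.74, 19.6 and 10.8 for Pitpnm3. It was 16.2, 36.9 and 24.2 for Mdga1 and 10.1, 17.3 and 15.6 for Serpine2. Kcnc2 had 23.9, 67.4 and 59.3 CPM, and Sntg2 18.9, 46.7 and 46.7 CPM. CGF mice thus lay near GF mice for some of these genes and near SPF mice for others.

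Against CA3 nuclei, Col11a1, a fibrillar collagen chain, fell less in the members (-1.11 and -2.42, difference 1.28 ± 0.17, adjusted p = 0.004). Mid1 rose more, with 2.42 and 1.68 (difference 0.71, adjusted p = 0.0012), but the difference was -0.16 after thinning to 3000 UMIs. SPF mice had 25.0, 21.3 and 34.3 CPM in the members and 41.7, 31.8 and 49.0 CPM in CA3 nuclei of the same mice, and GF mice had 156, 98.5 and 167 CPM and 144, 95.1 and 153 CPM. Thsd7b had -0.56 and -1.03, and Nxph1, a neurexin ligand of interneurons, -1.54 and -0.22 (adjusted p = 0.33 in CA3 nuclei). In the high Zbtb20 range the same tests called 141 genes against granule and 81 against CA3 nuclei, 58 and 7 of which were also called over all members.

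**Figure D5:**
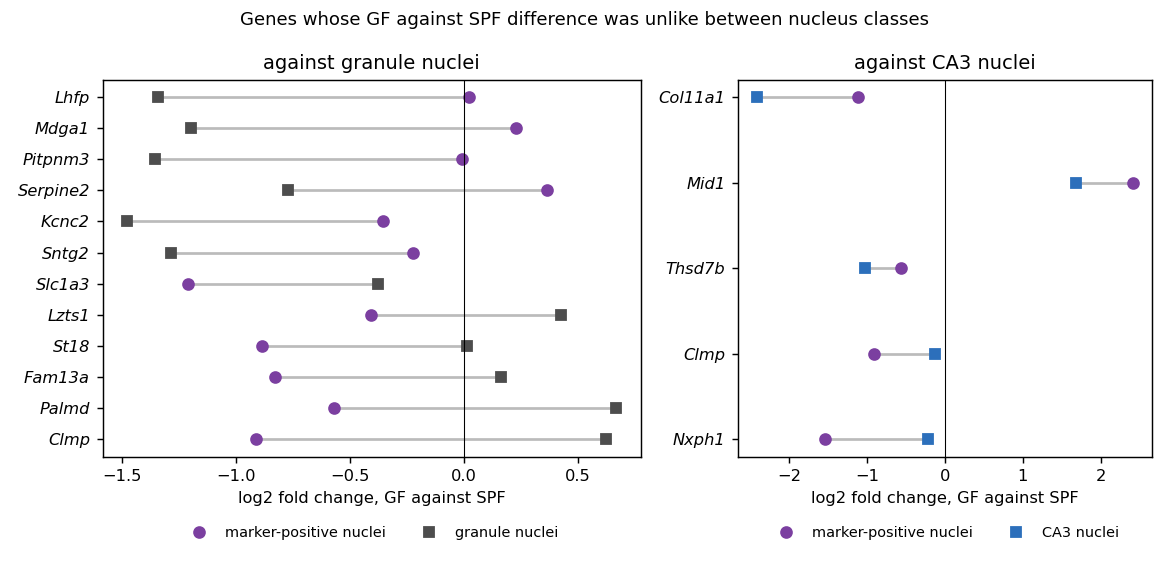
Log2 fold changes of GF against SPF mice (x axis) in marker-positive nuclei (circles) and in granule or CA3 nuclei (squares) of the same libraries, for the genes named by the rule on the difference. Clmp, Palmd and Lzts1 lie on opposite sides of 0 in marker-positive and granule nuclei, with a call in each, and Mid1 lies farther to the right in marker-positive than in CA3 nuclei.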

How the data were processed

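Nuclei of Hip were isolated by the authors, run on the 10x Genomics platform and counted against mm10. The deposited matrices hold counts, the UMIs per gene (30905 genes) and barcode, not normalized. The file headers name Cell Ranger 3.1.0. Whether intronic reads and strand were used in counting is not given in the sources used here. Only nuclei of at least 200 genes and at most 10% mitochondrial UMIs were kept, no doublet caller was run, and the limits of the rule on other cells' genes took its place. UMIs of the members were summed per mouse, because the mouse is the replicate, in place of the authors' Wilcoxon test over nuclei. Python 3.11.15 (numpy 2.4.6, pandas 2.3.3, scipy 1.17.1) read the matrices.

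edgeR 4.0.16 in R 4.3.3 was applied with its expression filter, TMM scaling and the quasi-likelihood test to all 9 mice, with Benjamini-Hochberg adjustment at 0.05. The difference between nucleus classes was tested as an interaction with the mouse as a block, since both classes came from 1 library. Levels in the comparisons are CPM scaled by TMM factors, and levels in the description of markers are plain CPM. CPM of 3′ UMIs was not compared between genes. The steps were tested on simulated data. Gene positions and spans come from the GENCODE annotation of GRCm38, matched for 99.8% of genes.

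Members, lists and tests were chosen with earlier results of these data known. The genes named were the 4 of highest level in each list and others beside its counts, and, per comparison, the 8 largest rises and the 8 largest falls among called genes of at least 20 CPM without overlap of the groups, clone and predicted names left out (6 for a difference between classes, 12 for identity). Alternatives were DESeq2 1.42.0, RLE scaling, no filter, stricter members, thinning, no deep nuclei, no quality-linked genes, a length and GC trend removed, 2 groups only, and each mouse left out. The trend was removed with TMM scaling kept, so the scaling between libraries entered 2 times in that fit, in every comparison. The division by Zbtb20 was added after seeing the data. Several genes that these rules select are not reported here, and the list counts include them.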

Additional observations from a re-analysis of the deposited data

Results flagged for a closer look

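The GF against SPF change differed between marker-positive nuclei and another class of the same libraries for the genes below, by the interaction test in edgeR with the mouse as a block and adjustment over all genes (adjusted p from 0.0012 to 0.048). Values are the log2 fold change in marker-positive nuclei minus that in the other class. Against granule nuclei the difference was 1.32 for Lhfp, 1.31 for Mdga1, 1.26 for Pitpnm3, 1.03 for Serpine2, 1.03 for Kcnc2 and 1.001 for Sntg2. It was -1.62 for Clmp, -1.33 for Palmd, -1.05 for Fam13a, -0.96 for St18, -0.90 for Lzts1 and -0.90 for Slc1a3. Against CA3 nuclei it was 1.28 for Col11a1, 0.71 for Mid1, 0.43 for Thsd7b, -1.34 for Nxph1 and -0.81 for Clmp.

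The marker-positive nuclei held more UMIs than the other classes, with a median per nucleus of 8541 to 13651 against 6017 to 9484 in granule and 7158 to 11205 in CA3 nuclei, and the part of this depth in the differences was not tested. Single mice that stood apart were described but not tested, since groups of 3 are too small for that.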

How the results depend on the processing

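Nuclei thinned to 3000 UMIs gave 1427 calls in the GF and SPF comparison, 1618 with GF and CGF mice, 1 for CGF against SPF, 19 for the difference from granule and 0 for that from CA3 nuclei. The share of marker-positive nuclei in GF minus SPF then turned to 0.934 and the Mid1 difference from CA3 nuclei to -0.16. Fewer genes were tested after thinning. Members under 8 Zbtb20 UMIs gave 3858, 4342, 13 and 2 calls (the 3 comparisons in the same order and the CA3 difference), and those with 8 or more gave 104 for CGF against SPF, 141 for granule and 81 for CA3 nuclei. Without a filter on low counts 105, 488 and 252 genes were called for these last 3. DESeq2 called 202 for CGF against SPF and 40 for the granule difference, and RLE scaling gave 50 for the latter. The granule difference had 20 higher and 64 lower calls in the report, 60 and 19 without deep nuclei, 64 and 24 without quality-linked genes and 40 and 25 under 8 Zbtb20 UMIs, while its median over all genes went from -0.07 to 0.07. The causes were not tested.

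Without the mouse as a block (no replicate block) 4 genes were called against granule and 0 against CA3 nuclei (362 at an unadjusted p under 0.05). Across groups no pairing was used, since replicate numbers only follow the order of deposit. Leaving out each mouse in turn gave 4971 to 6539 calls in the GF and SPF comparison, 5074 to 6750 with GF and CGF mice, 16 to 48 for CGF against SPF, 17 to 100 for granule and 6 to 9 for CA3 nuclei. The granule count was 52, 49 and 17 without GF mouse 5, 6 and 7 and 33 without SPF mouse 30. The share difference ranged from -1.47 to 1.13 and was 0.156 without GF mouse 6 and 1.13 without SPF mouse 30. The difference in UMIs per nucleus, -2517 in the report, ranged from -2874 to -2199, with p from 0.0107 to 0.125. Over the genes of largest change alone (16 for each GF comparison, 10 for CGF against SPF, 12 for granule and 5 for CA3 nuclei), 189 of 191 under other settings and 144 of 144 without a mouse stayed on their side of the threshold in the GF and SPF comparison, 175 of 182 and 141 of 144 with GF and CGF mice, 91 of 120 and 39 of 90 for CGF against SPF, 82 of 120 and 69 of 108 for granule, and 35 of 50 and 41 of 45 for CA3 nuclei.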
